A study of Homo sapiens with 6 samples.

Results

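The genes that encode the subunits of RNA polymerase I, II and III were examined in RNA-seq libraries of cells with knockdown of ARMC5. Members were all protein-coding genes of GENCODE 44 whose symbol starts with POLR1, POLR2 or POLR3 followed by letters or digits, and 34 of the 35810 genes with a matched transcript met this rule. They carry 33 symbols, because POLR2J3 is annotated as 2 genes (ENSG00000168255 and ENSG00000285437). The cells were SPT5-AID cells, DLD-1 colorectal adenocarcinoma cells in which the elongation factor SPT5 carries an auxin-inducible degron. They expressed a short hairpin RNA against ARMC5 (shARMC5) or a nontargeting one (shNT), with 3 replicates of each, and both groups carry the degron and the lentiviral vector. The sample labels name no auxin, and neither the ARMC5 hairpin used nor whether all shARMC5 libraries share one is given in the sources used here. The study describes its replicates as biological, but the labels do not say that they were separate cultures, and p-values measure only the spread between these libraries.

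The 3 nuclear RNA polymerases divide the genome between them. Pol I makes the precursor of the large ribosomal RNAs in the nucleolus, Pol II makes mRNA, and Pol III makes tRNA and other small RNAs. In each enzyme a pair of large subunits forms the active center, an assembly platform of smaller subunits holds them together, and some small subunits are common to all the enzymes. ARMC5 is a substrate adaptor of the CUL3 ubiquitin ligase, which acts on proteins. The comparison here asks whether mRNA of the polymerase subunits differed when ARMC5 mRNA was reduced.

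Salmon assigned between 26201112 and 40866478 reads per library to transcripts. Levels of 1 gene in different libraries are given as CPM, reads per 1000000 after TMM normalization, and levels of different genes as TPM, which allows for transcript length. Differences are log2 fold changes of shARMC5 against shNT from edgeR's quasi-likelihood test, called at an adjusted p under 0.1. ARMC5 itself was reduced in shARMC5 cells to 11.9 ± 1.09 CPM, from 25.2 ± 1.95 CPM with shNT (SD, n = 3 each), with a log2 fold change of -1.09 (SE 0.08, adjusted p = 5.32e-07 in edgeR). The epithelial markers EPCAM, CDH1, KRT8, KRT18 and CDX2 were at 111 TPM or more in every library, while VIL1 and LGALS4 reached at most 9.91 and 1.07 TPM. VIL1 lay at 2.95 to 4.23 TPM in shARMC5 and 7.67 to 9.91 TPM in shNT cells, without overlap. The keratins lay the other way, with KRT18 at 3051 to 3090 TPM against 2508 to 2681 TPM and KRT8 at 3456 to 3649 TPM against 3060 to 3307 TPM. The part of these differences in the results on the subunits was not tested. The 7 markers of leukocytes, endothelium and fibroblasts reached at most 1.19 TPM, and CD3E was at 0. In bulk RNA, fewer cells of a type and less RNA per cell cannot be told apart.

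The mRNA levels of the polymerase subunits as a group differed little between shARMC5 and shNT cells. Of the 34 genes, all of which passed the filter on low counts, 1 was called higher (POLR1G) and 0 were called lower. This is 2.94% of the members, against 7.75% of the 13737 genes tested (4.44% higher and 3.3% lower). Without adjustment, 5 members had a p under 0.05 (POLR1E, POLR1G, POLR2H, POLR2L and the POLR2J3 gene ENSG00000285437), against 18.1% of all genes tested. DESeq2 also called 1 member, but a different one, POLR1A, which was lower. Over all genes DESeq2 called 877 (503 higher, 374 lower). The log2 fold change was above 0 for 16 members and below 0 for 18, with a median of -0.0024 over the members and -0.0014 over all genes tested. The median size of the change, regardless of sign, was 0.058 for the members and 0.078 for all genes tested. For 28 members the 95% interval of the change lay within 1.25-fold in either direction. The other 6 (POLR1H, POLR2A, POLR2J, POLR2J2, POLR2J3 ENSG00000285437 and POLR3GL) had wider intervals or larger differences. For 7 members the libraries of the groups did not overlap, 20.6% of the members against 23.4% of all genes tested.

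**Figure D1:**
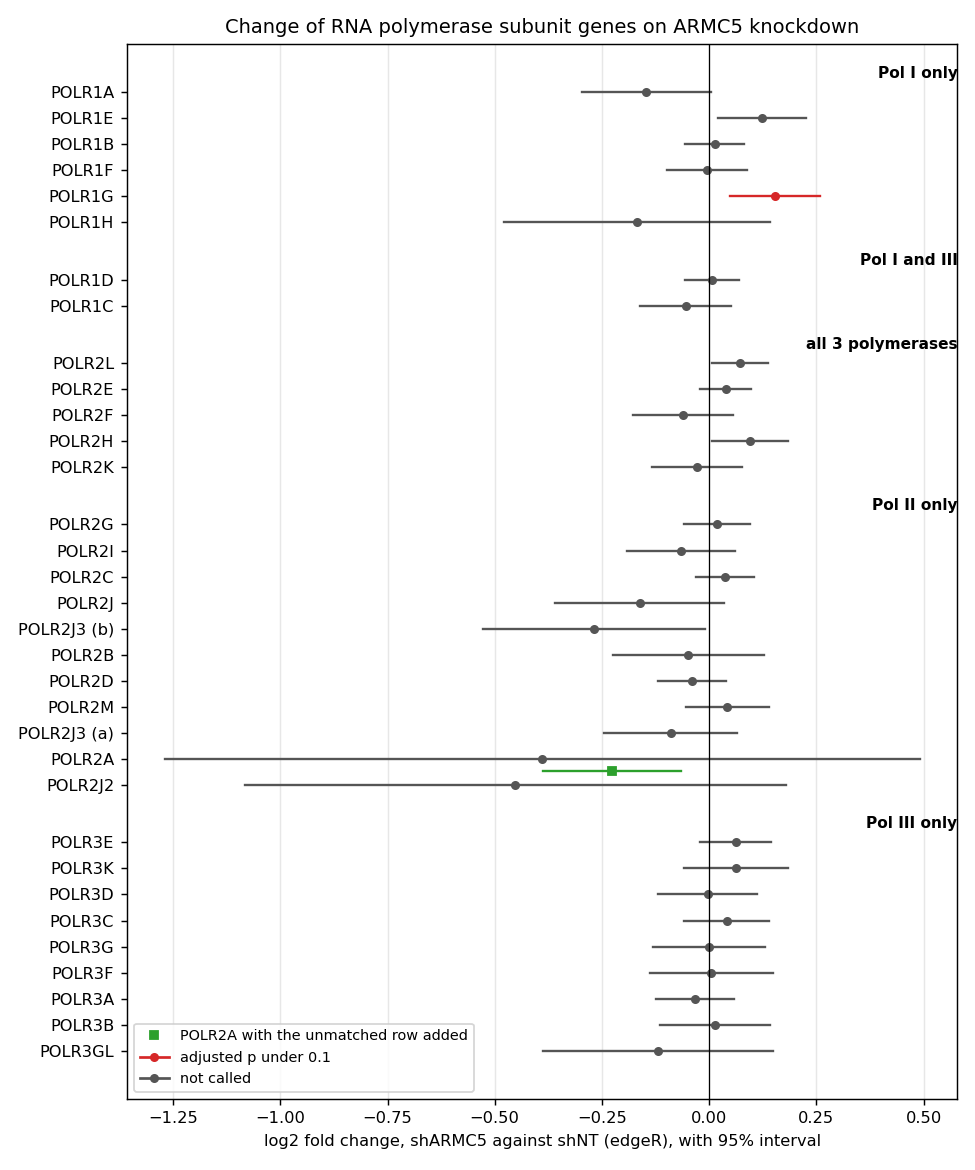
Log2 fold change of 33 of the 34 subunit genes in shARMC5 against shNT cells (x axis, edgeR) with its 95% interval (bars), grouped by the polymerases that contain the subunit. POLR1G is the 1 gene with an adjusted p under 0.1, the interval of POLR2A is the widest, and the square shows POLR2A with the unmatched transcript added. POLR2J3 (a) is ENSG00000168255 and (b) is ENSG00000285437.

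Genes of shared subunits had higher median levels than genes of subunits of a single polymerase. The 5 genes whose products are common to all 3 polymerases had a median level of 141 TPM over the 6 libraries, and the 2 genes common to Pol I and Pol III had levels of 266 TPM (POLR1D) and 60.6 TPM (POLR1C). The median was 57.6 TPM for the 11 Pol II genes, 31.3 TPM for the 6 Pol I genes and 29.5 TPM for the 10 Pol III genes. POLR2L, which encodes the small zinc-binding subunit RPB10, had the highest level (844 TPM), followed by POLR2E, which encodes RPB5 (354 TPM). POLR1D and POLR2G, the gene of the stalk subunit RPB7 (181 TPM), came next. POLR2F (141 TPM) and POLR2H (131 TPM), for RPB6 and RPB8, had neighboring levels, and POLR2I (118 TPM), for RPB9, and POLR2K (111 TPM), for RPB12, overlapped across libraries. At the other end stood POLR3B (11.2 TPM), POLR3GL (9.53 TPM), POLR2A (7.14 TPM from its matched transcripts) and POLR2J2 (1.21 TPM). The places of POLR3GL and POLR2A hold for matched transcripts only. With the unmatched transcripts listed after them added, they would be at 20.4 and 58.6 TPM. The order given is a description of levels per length and not a test, and 33 members lay at 5 TPM or more.

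**Figure D2:**
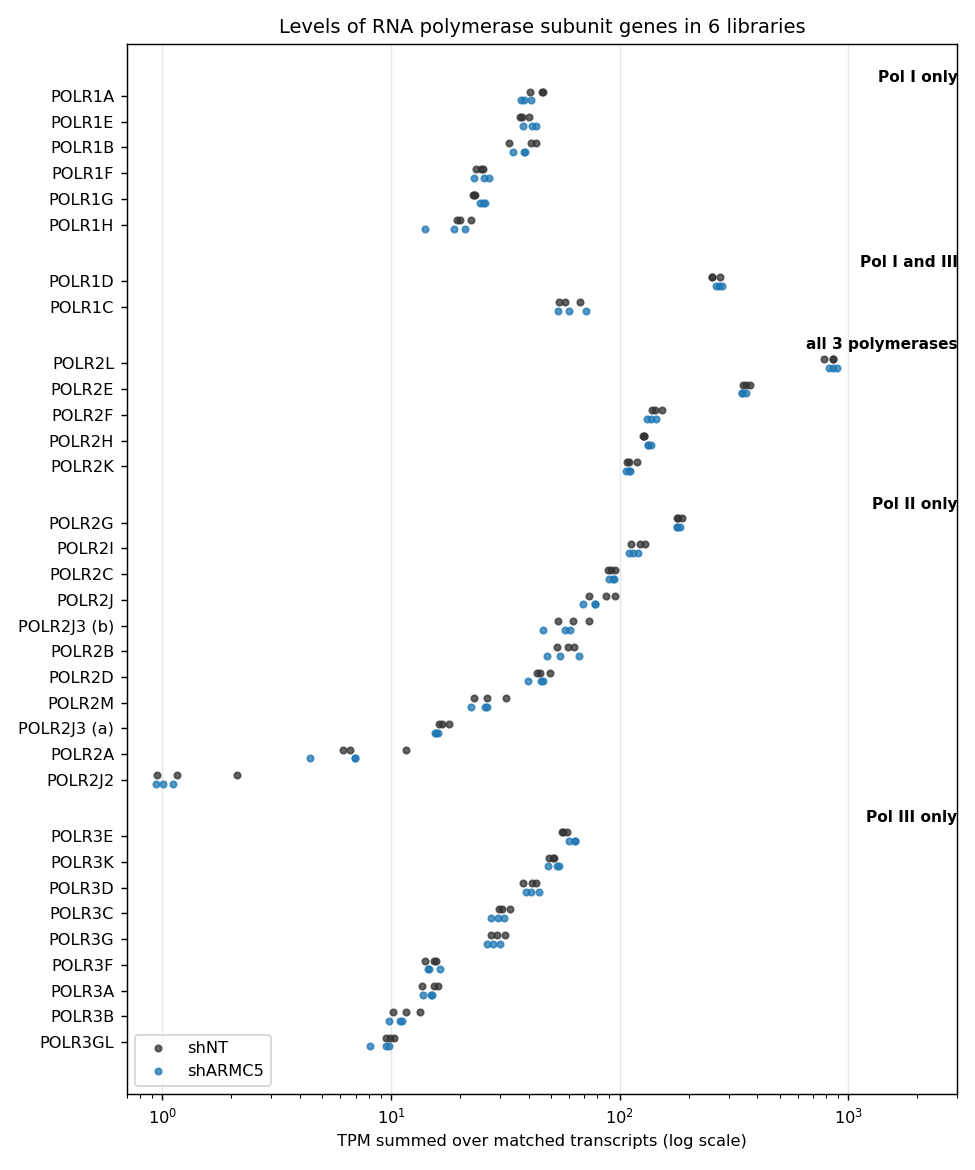
Level of 33 of the 34 subunit genes in TPM (x axis, log scale) in the 3 shNT and 3 shARMC5 libraries, 1 point per library, grouped by the polymerases that contain the subunit. The genes common to all 3 polymerases lie at 111 TPM or more on average, and POLR2J2 lies lowest at 1.21 TPM. POLR2J3 (a) is ENSG00000168255 and (b) is ENSG00000285437.

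Summed levels by symbol did not separate the groups. The 8 POLR1 genes summed to 517 ± 7.60 TPM (SD, n = 3) in shARMC5 and 510 ± 17.1 TPM (SD, n = 3) in shNT cells. The 16 POLR2 genes summed to 2251 ± 43.9 TPM and 2277 ± 84.4 TPM, and the 10 POLR3 genes to 341 ± 10.3 TPM and 337 ± 9.64 TPM. In each of these classes the groups overlapped. The median log2 fold change was 0.0007 for the POLR1, -0.044 for the POLR2 and 0.0097 for the POLR3 genes. The POLR2 genes include the 5 common to all 3 polymerases, which make up most of their sum (1585 ± 27.8 TPM in shARMC5 and 1575 ± 58.4 TPM in shNT cells). The 11 genes of Pol II alone, with POLR2A from its matched transcripts only, summed to 666 ± 32.8 TPM and 702 ± 26.6 TPM (SD, n = 3). These groups overlapped too. Of the 11 genes of Pol II alone, 3 had log2 fold changes above 0 and 8 below, with a median of -0.066, and 0 were called. The 8 include the POLR2J family, whose genes share sequence. The POLR1 and POLR3 medians changed sign when only library size was used for scaling (-0.013 and -0.0045).

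Among the subunits of Pol I alone, POLR1G was higher, and the other 5 were not called. POLR1G (ENSG00000117877, GRCh38 chr19:45406644-45410737, plus strand) encodes a Pol I subunit that forms a heterodimer with the POLR1E product. Its level in shARMC5 cells was 41.5, 39.6 and 41.8 CPM in replicates 1 to 3, and in shNT cells 36.6, 36.8 and 36.9 CPM. Every shARMC5 library lay above every shNT library, and the shNT libraries were within 1 CPM of each other. On the log2 scale the difference was 0.15 (SE 0.05, 95% interval 0.05 to 0.26, adjusted p = 0.0906 in edgeR). This call was close to the threshold of 0.1 and was lost with DESeq2 (adjusted p = 0.196), with an offset for transcript length in edgeR (0.371), and when any 1 of the 6 libraries was left out (0.111 to 0.216). The direction was higher in all 16 alternatives, with adjusted p between 0.0592 and 0.397.

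POLR1G is also a gene whose reads are not all its own. Of the 31-base windows in its annotated transcripts, 57.6% occur in a transcript of another gene in one orientation or the other, and 1566 of the 3244 windows occur in ERCC1, a DNA repair gene on the opposite strand. The library kit named in the labels is not a directional one, so reads from the overlap could be placed on either gene. ERCC1 stood at 28.5 ± 1.10 CPM in shARMC5 cells against 28.1 ± 1.73 CPM with shNT (SD, n = 3 each), a log2 fold change of 0.02 (SE 0.06, adjusted p = 0.932 in edgeR). Salmon placed 59.8% of POLR1G reads, averaged over libraries, on ENST00000309424, of whose windows in GENCODE 44 56.1% occur in ERCC1. The GENCODE 44 version of this transcript has 2822 bases and the quantified one 3286, so the share describes a shorter sequence. Fitted alone, ENST00000309424 had a log2 fold change of 0.22 (SE 0.06, unadjusted p = 0.015, adjusted p = 0.757 over transcripts in edgeR). The transcript ENST00000589804, with 87.0% of its windows in ERCC1, held 36.0% of the reads and had a log2 fold change of 0.03 (unadjusted p = 0.827). The part of ERCC1 reads in the POLR1G difference was not tested beyond these values.

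POLR1E (ENSG00000137054), the partner of POLR1G in the heterodimer, had levels of 52.0, 54.0 and 48.5 CPM in shARMC5 and 48.1, 46.0 and 48.0 CPM in shNT cells. The groups did not overlap, but the lowest shARMC5 library was within 1 CPM of the highest shNT library. Its log2 fold change was 0.12 (SE 0.05, adjusted p = 0.174 in edgeR), and it passed the threshold in 1 of 16 alternatives (0.0982 without shARMC5 replicate 3).

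POLR1A (ENSG00000068654, chr2:86020216-86106155, minus strand), which encodes the largest subunit of Pol I, went the other way. Its level was 194, 189 and 166 CPM in shARMC5 and 208, 203 and 197 CPM in shNT cells. Every shARMC5 library was below every shNT library, and shARMC5 replicate 3 was the lowest of all. The log2 fold change was -0.15 (SE 0.06, 95% interval -0.30 to 0.0047, adjusted p = 0.290 in edgeR). DESeq2 called POLR1A lower (adjusted p = 0.0460), as did edgeR when genes with at least 1 count were tested (4.45e-04), and it was called in 4 of 16 alternatives, with adjusted p from 4.45e-04 to 0.538. Testing genes with at least 1 count also moved the unadjusted edgeR p of ARMC5 from 3.17e-10 to 3.91e-45 at nearly the same SE (0.0803 and 0.0771). The small p of POLR1A in that fit is therefore not read as stronger evidence. Without shARMC5 replicate 3 the log2 fold change of POLR1A was -0.08. POLR1B, for the second of the large subunits, had a log2 fold change of 0.01 (SE 0.03, 95% interval -0.06 to 0.08). POLR1F, for a stalk subunit, had a log2 fold change of -0.0053 (SE 0.04). POLR1H, the Pol I gene with the lowest level (19.3 TPM), encodes a subunit that supports RNA cleavage. It had 7.23, 10.8 and 9.91 CPM in shARMC5 and 9.48, 11.5 and 10.5 CPM in shNT cells, which overlap. Its log2 fold change was -0.17 (SE 0.14, 95% interval -0.48 to 0.14, adjusted p = 0.594 in edgeR), and it was -0.015 without shARMC5 replicate 1.

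**Figure D3:**
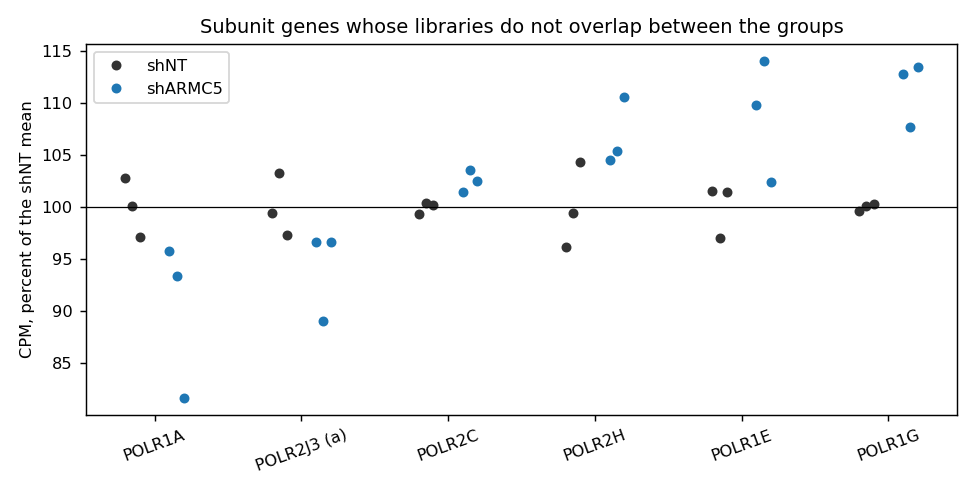
CPM of 6 of the 7 subunit genes whose libraries do not overlap between the groups, as a percentage of the shNT mean of each gene (y axis, which does not start at 0), 1 point per library. POLR1A and POLR2J3 (a), ENSG00000168255, are lower and the other 4 genes higher in shARMC5 cells, and of the 6 only POLR1G was called.

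The platform subunits common to Pol I and Pol III gave no call. POLR1D, for the subunit RPAC2, was at 186, 189 and 195 CPM in shARMC5 and 193, 191 and 184 CPM in shNT cells. The groups overlapped, and the log2 fold change was 0.0067 (SE 0.03, 95% interval -0.06 to 0.07, adjusted p = 0.940 in edgeR). POLR1C, for the subunit RPAC1, was at 42.4, 43.9 and 47.2 CPM in shARMC5 and 45.3, 45.6 and 47.6 CPM in shNT cells. Here too the groups overlapped, with a log2 fold change of -0.05 (SE 0.05, 95% interval -0.16 to 0.05, adjusted p = 0.632 in edgeR).

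Of the 5 subunits common to all 3 polymerases, 3 had log2 fold changes above 0 and 2 below, and 0 were called. POLR2L had 327, 345 and 352 CPM in shARMC5 and 323, 334 and 316 CPM in shNT cells. Only shARMC5 replicate 1 fell within the shNT range. Its log2 fold change was 0.07 (SE 0.03, 95% interval 0.0075 to 0.14, unadjusted p = 0.0311, adjusted p = 0.218 in edgeR). POLR2L was called in 1 of 16 alternatives (adjusted p = 0.0802 without shARMC5 replicate 1). POLR2H had 67.3, 67.9 and 71.2 CPM in shARMC5 and 61.9, 64.0 and 67.2 CPM in shNT cells, and the highest shNT library lay just under the lowest shARMC5 library. Its log2 fold change was 0.10 (SE 0.04, unadjusted p = 0.0365, adjusted p = 0.239 in edgeR). POLR2E, POLR2F and POLR2K had log2 fold changes of 0.04, -0.06 and -0.03 with SE of 0.03, 0.05 and 0.05. For POLR2K, the gene of this class with the lowest level, the interval was -0.13 to 0.08 (adjusted p = 0.826 in edgeR).

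POLR2A (ENSG00000181222, chr17:7484366-7514616, plus strand) encodes RPB1, the largest subunit of Pol II, which carries the catalytic site and the C-terminal repeat domain. Its matched transcripts held only 282 to 744 reads per library. Their levels were 18.6, 10.8 and 11.2 CPM in shARMC5 and 22.8, 16.1 and 14.1 CPM in shNT cells. The groups overlapped, and replicate 1 was the highest in both. This gave a log2 fold change of -0.39 (SE 0.32, 95% interval -1.27 to 0.49, adjusted p = 0.630 in edgeR), and it lay between -0.69 and -0.16 when 1 library at a time was left out. With replicate number as a further term it was -0.40 (SE 0.08, adjusted p = 0.00376 in edgeR), but whether the numbers pair the libraries is not known. GENCODE 44 annotates none of the reads on these rows to a transcript of type protein_coding. On average 92.3% of them were on ENST00000617998, annotated as a protein-coding gene's transcript without a defined coding region.

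Directly after these rows the files list ENST00000653680, a transcript of 6738 bases with no entry in GENCODE 44. It held 5948 to 9169 reads per library, between 92.5% and 95.5% of the sum of this row and the POLR2A rows. Its place in the list does not identify it as a POLR2A transcript, and values that include it are given as such. The unmatched row was at 239, 220 and 236 CPM in shARMC5 and 280, 249 and 278 CPM in shNT cells. Every shARMC5 library was below every shNT library. Fitted as a transcript, it had a log2 fold change of -0.21 (SE 0.05, 95% interval -0.34 to -0.08, unadjusted p = 0.00724, adjusted p = 0.561 over transcripts in edgeR).

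With the row added, POLR2A was at 257, 231 and 247 CPM in shARMC5 and 303, 265 and 292 CPM in shNT cells, again without overlap. The log2 fold change of the sum was -0.23 (SE 0.06, 95% interval -0.39 to -0.06, unadjusted p = 0.0147, adjusted p = 0.143 in edgeR). DESeq2 called the sum lower (adjusted p = 7.44e-05), while edgeR did so in 1 of 6 fits with 1 library left out (without shNT replicate 2, adjusted p = 0.00778). Over those 6 fits the log2 fold change lay between -0.28 and -0.18, and the adjusted p between 0.00778 and 0.323. The sum raises the level of POLR2A from 7.14 TPM to 58.6 TPM, between POLR2J3 ENSG00000285437 (59.1 TPM) and POLR2B (57.6 TPM). Whether the sum is called thus depends on the fit, and the sum itself on a row without an annotated gene.

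**Figure D4:**
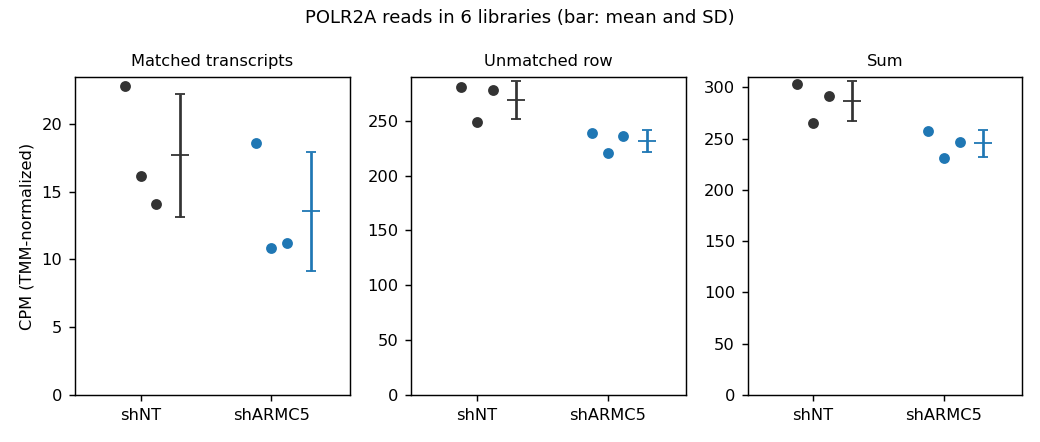
CPM of the matched POLR2A transcripts, of the unmatched row listed after them and of their sum (y axes, each from 0) in the 3 shNT and 3 shARMC5 libraries, with mean and SD beside the points. The groups overlap for the matched transcripts and do not overlap for the unmatched row or the sum.

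The remaining Pol II genes fall into subunits with a sequence of their own and the POLR2J family. POLR2G was at 85.6, 84.5 and 85.4 CPM in shARMC5 and 81.2, 87.0 and 84.3 CPM in shNT cells. The shARMC5 libraries lay inside the range of the shNT libraries, and the log2 fold change was 0.02 (SE 0.04, 95% interval -0.06 to 0.09, adjusted p = 0.861 in edgeR). POLR2B, for the large subunit RPB2, was at 128 ± 11.7 CPM in shARMC5 and 132 ± 5.74 CPM in shNT cells (SD, n = 3), with a log2 fold change of -0.05 (SE 0.07). POLR2C, for the platform subunit RPB3, was higher in every shARMC5 library (100.4, 102 and 101 CPM) than in every shNT library (98.2, 99.3 and 99.1 CPM), but by a log2 fold change of only 0.04 (SE 0.03, adjusted p = 0.600 in edgeR). POLR2D, POLR2I and POLR2M had log2 fold changes of -0.04, -0.07 and 0.04 with SE of 0.04, 0.06 and 0.05. POLR2D and POLR2I encode RPB4 and RPB9, and the POLR2M product binds Pol II without being one of its core subunits.

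POLR2J encodes RPB11, the partner of RPB3 in the platform. POLR2J2 and POLR2J3 are near-copies of it on chromosome 7, and the near-identity is shown by the first 90 coding bases of each on GRCh38 (GENCODE 44, minus strand). Capitals in POLR2J mark 3 bases that the copies lack, and the capital in POLR2J2 marks the substitution T87G, with positions counted from 1 at the A of the POLR2J start codon and the POLR2J base first. The start codons lie at chr7:102478858-102478860 (POLR2J), chr7:102671599-102671601 (POLR2J2) and chr7:102572519-102572521 (both POLR2J3 genes, whose transcripts start at the same codon).
POLR2J: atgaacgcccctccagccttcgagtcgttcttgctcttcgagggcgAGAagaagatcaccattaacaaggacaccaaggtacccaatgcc
POLR2J2: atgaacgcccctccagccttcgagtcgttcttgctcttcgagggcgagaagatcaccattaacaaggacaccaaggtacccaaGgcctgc
POLR2J3: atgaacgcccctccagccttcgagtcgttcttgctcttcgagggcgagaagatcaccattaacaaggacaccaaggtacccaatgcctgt

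Because of this identity the division of reads among the 4 genes is uncertain. Of the 31-base windows in their transcripts, 35.9% occur in another gene for POLR2J, 97.0% for POLR2J2, 86.9% for POLR2J3 ENSG00000168255 and 49.5% for POLR2J3 ENSG00000285437. POLR2J had 44.5, 44.2 and 40.2 CPM in shARMC5 and 47.4, 54.1 and 42.8 CPM in shNT cells. The groups overlapped, with a log2 fold change of -0.16 (SE 0.09, 95% interval -0.36 to 0.04, adjusted p = 0.376 in edgeR). POLR2J2 had 1.39, 1.32 and 1.59 CPM in shARMC5 and 1.56, 1.33 and 3.00 CPM in shNT cells, from 40 to 84 reads per library. Only shNT replicate 3 stood apart, and the log2 fold change was -0.45 (SE 0.30, 95% interval -1.08 to 0.18, adjusted p = 0.461 in edgeR). It was -0.02 in the fit without that library.

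POLR2J3 ENSG00000168255 had 14.7, 13.6 and 14.8 CPM in shARMC5 and 15.2, 15.8 and 14.8 CPM in shNT cells. The groups touch without overlapping, and the log2 fold change was -0.09 (SE 0.07, 95% interval -0.24 to 0.07, adjusted p = 0.569 in edgeR). POLR2J3 ENSG00000285437 had 15.3, 13.0 and 11.5 CPM in shARMC5 and 16.7, 13.9 and 17.6 CPM in shNT cells. Its groups overlapped, and the log2 fold change was -0.27 (SE 0.12, 95% interval -0.53 to -0.01, unadjusted p = 0.0427, adjusted p = 0.258 in edgeR). It was called in 3 of 16 alternatives, among them the fits without shARMC5 replicate 1 (adjusted p = 0.0675) and without shNT replicate 2 (adjusted p = 0.0778). POLR2J was likewise called without shNT replicate 3 (log2 fold change -0.24, adjusted p = 0.0713), while without shNT replicate 2 its log2 fold change was -0.07 (adjusted p = 0.620).

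All 4 genes of the family thus had log2 fold changes below 0, and a sum of their reads does not depend on how salmon divided reads among these 4. It still depends on the division with genes outside the family, such as UPK3BL2 and SPDYE2, whose transcripts share windows with the POLR2J3 genes. This sum, chosen after the values were seen, was at 76.0, 72.1 and 68.0 CPM in shARMC5 and 80.8, 85.0 and 78.2 CPM in shNT cells. Every shARMC5 library was below every shNT library. Fitted as 1 gene, it had a log2 fold change of -0.17 (SE 0.04, adjusted p = 0.0321 in edgeR and 0.0297 in DESeq2). With 1 library left out it was called in 2 of 6 fits, with log2 fold changes of -0.22 to -0.14 and adjusted p of 0.0176 to 0.127. The call was lost without shARMC5 replicate 2 (0.127), shARMC5 replicate 3 (0.115), shNT replicate 1 (0.103) or shNT replicate 2 (0.118).

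The 10 Pol III genes had a median log2 difference, regardless of sign, of 0.037, against 0.066 for the Pol II and 0.14 for the Pol I genes. Their log2 fold changes lay between -0.12 and 0.06, 6 above 0 and 4 below, and 0 were called or had an unadjusted p under 0.05, against 7.75% and 18.1% of all genes tested, shares at which 10 genes hold few such genes. DESeq2 also called 0 of them. The largest subunits, POLR3A and POLR3B, were at 66.4 ± 3.41 and 30.9 ± 1.72 CPM in shARMC5 and 68.0 ± 1.73 and 30.6 ± 1.44 CPM in shNT cells (SD, n = 3). POLR3C and POLR3F, which form an initiation subcomplex with POLR3G or POLR3GL, had log2 fold changes of 0.04 (SE 0.05) and 0.0051 (SE 0.07). POLR3D and POLR3E, partners in another subcomplex, had -0.0035 (SE 0.05) and 0.06 (SE 0.04). POLR3K, which supports RNA cleavage and termination, had 0.06 (SE 0.06).

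POLR3G and POLR3GL encode alternative forms of the subunit RPC7, so that a Pol III enzyme holds one or the other. In TPM, POLR3G was at 28.1 ± 1.87 in shARMC5 and 29.3 ± 2.08 in shNT cells, and POLR3GL at 9.13 ± 0.902 and 9.92 ± 0.409 (SD, n = 3). POLR3G was the higher in every library. The unmatched transcripts listed after POLR3GL would together raise POLR3GL from 9.53 to 20.4 TPM over all libraries, still under POLR3G. In CPM, POLR3G had 31.3, 34.7 and 35.7 in shARMC5 and 35.8, 33.3 and 32.5 in shNT cells, a log2 fold change of -0.0012 (SE 0.06, 95% interval -0.13 to 0.13, adjusted p = 0.996 in edgeR). POLR3GL had 6.34, 6.16 and 5.43 CPM in shARMC5 and 6.12, 7.34 and 6.03 CPM in shNT cells, from 137 to 243 reads. Both pairs of groups overlapped, and the log2 fold change of POLR3GL was -0.12 (SE 0.13, 95% interval -0.39 to 0.15, adjusted p = 0.688 in edgeR). With all those unmatched transcripts added it was 0.08 (SE 0.07, adjusted p = 0.615 in edgeR), so its sign rests on whether they are counted.

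Single transcripts of the subunit genes were measured with less precision than the genes. Of 268 transcripts listed for the members, 149 passed the filter and 0 were called, against 0.00771% of the 51892 transcripts tested. Of the 149, 6 had an unadjusted p under 0.05 in edgeR. The share of all transcripts with such a p is not given here, so this count is a description only. DESeq2 was not run on transcripts. The median SE of the log2 fold change was 0.38 for these transcripts and 0.05 for the genes. In 20 members at least 90% of reads were on transcripts annotated as protein_coding. In 4 members under 50% were on such transcripts (POLR2A, POLR2E, POLR2J3 ENSG00000168255 and POLR3D). Transcripts annotated as targets of nonsense-mediated decay held 68.9 ± 0.952% of POLR2E reads in shARMC5 and 67.5 ± 1.98% in shNT cells (SD, n = 3). For POLR2J3 ENSG00000168255 this share was 83.4 ± 5.61% and 83.0 ± 2.62%. For POLR2L this share was 42.4 ± 2.33% and 44.7 ± 0.362%. For POLR3G it was 83.5, 32.8 and 38.6% in shARMC5 and 42.4, 44.8 and 54.2% in shNT cells. The high share in shARMC5 replicate 1 came with 3.36% of POLR3G reads on ENST00000504930, against 28.0 to 51.9% in the other libraries, although the decay target, ENST00000399107 (3285 bases), is close in length to it (3251 bases).

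In POLR3E the shares of single transcripts in replicate 3 stood apart in both groups. ENST00000418581 held 17.2, 21.4 and 5.94% of reads in shARMC5 and 18.7, 23.6 and 8.96% in shNT cells, lowest in replicate 3 of each. ENST00000564750 held 22.7, 21.7 and 32.7% in shARMC5 and 21.3, 17.8 and 29.1% in shNT cells, highest in replicate 3 of each. This gene was picked after its values were seen, and its total, at 83.0, 76.9 and 79.8 CPM in shARMC5 and 76.9, 74.3 and 78.3 CPM in shNT cells, did not show this pattern.

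**Figure D5:**
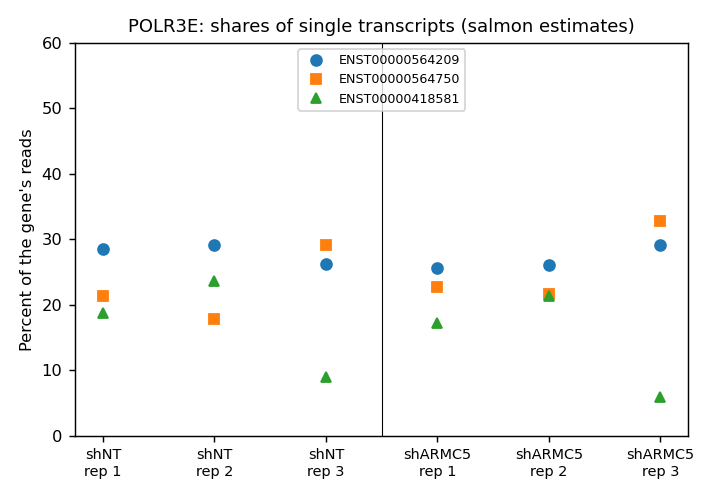
Percent of the reads of POLR3E (y axis) that salmon placed on each of 3 transcripts in the 6 libraries (x axis). Replicate 3 of shNT and of shARMC5 differs from the other replicates of its own group in ENST00000418581, with 8.96% and 5.94%, and in ENST00000564750, with 29.1% and 32.7%.

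Genes that help to assemble the polymerases or bring them to their promoters were examined beside the subunits. Of 40 such genes, 39 were tested, and 0 were called by edgeR, by DESeq2 or at an unadjusted p under 0.05, against 7.75% called and 18.1% with an unadjusted p under 0.05 among all genes tested in edgeR. RRN3 was not analysed here. The 16 assembly factors, such as RPAP2 and the RUVBL1 and RUVBL2 ATPases, had a median log2 fold change of 0.02, between -0.09 and 0.26. The highest of these was PFDN6 (SE 1.16), which was at 0 CPM in shNT replicate 3. The 7 Pol I initiation and termination factors had a median of 0.02, and the 16 Pol III initiation factors, with the repressor MAF1, of -0.0035. The lowest was BDP1, a subunit of TFIIIB, at 74.8 ± 6.29 CPM in shARMC5 and 97.9 ± 18.9 CPM in shNT cells (SD, n = 3), a log2 fold change of -0.39 (SE 0.18, adjusted p = 0.365 in edgeR).

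The subunit genes are spread over 19 chromosomes, with 5 of them on chromosome 7. The RefSeq promoter table for GRCh38.p14, with 250 bases before and 50 after each start, matched 24 members with 30 windows. The letters CCGGAAG, the core bound by ETS factors, were searched on both strands, and a window in which they overlap their own reverse complement counted once. They occurred in 36.7% of the member windows, from 9 genes, against 12.8% of windows of all protein-coding genes. The GC box GGGCGG occurred in 70.0% against 56.3%, and TATAAA in 3.33% against 9.47%. A match is a description of letters, and no binding was measured. A stretch of 27 bases around a match is shown for a gene of each polymerase, with the motif or its reverse complement in capitals on the strand of the gene, from chr2:112541900-112541926 (POLR1B), chr16:57462644-57462670 (POLR2C) and chr10:78029590-78029616 (POLR3A, minus strand).
POLR1B: ggcctccagtCCGGAAGatgcgacgag
POLR2C: cgctgactgaCTTCCGGtgttggcggt
POLR3A: aaaaggcatgCCGGAAGtctctcttga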

How the data were processed

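PolyA+ RNA of 6 libraries was sequenced, and the authors used cutadapt 4.2 for trimming and salmon 1.9.0 for quantification (hg38 per the labels). The deposited files give an estimated count of reads, TPM, and length and effective length for each of 177456 transcripts. The transcript set is not given in the sources used here. Identifiers were matched without version to GENCODE 44 (GRCh38), and 165533 matched. The 11923 others, with 2.96 to 3.04% of reads, were left out or, in an alternative, added to the gene listed before them.

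Rounded sums of the estimated counts per gene entered the test where 3 or more libraries held 10 counts or more. This was the robust quasi-likelihood test of edgeR 4.0.16 (R 4.3.3), with TMM factors (0.992 to 1.02), condition as the only term and Benjamini-Hochberg adjustment over all genes. The study used DESeq2 after summarizing transcripts with tximeta. DESeq2 is an alternative here (1.42.0), run on the rounded sums without transcript lengths unless a length offset is named. It is thus not a repeat of the study's own fit. Over all genes it called 877 without and 568 with the length offset. The script was tested on simulated data. The values of 1 member are not reported here, though it is counted in totals. Full statistics were planned for POLR2A, called members, the highest and lowest member by TPM of each class, paralogs and ARMC5. Members, lists and tests were chosen with earlier results of these data known, and POLR1E, POLR2H, POLR2C, POLR3E, PFDN6, BDP1 and ERCC1 were named after their values were seen.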

Additional observations from a re-analysis of the deposited data

Results flagged for a closer look

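Besides the row after POLR2A, 3 other unmatched transcripts of the 32 listed directly after a member's rows had a mean of at least 100 reads. These rows lie outside the comparisons by gene, and a place in the list does not identify a transcript's gene. ENST00000653680, listed after POLR2A, had a mean of 7818 reads (5948 to 9169 per library). ENST00000574749, listed after POLR3GL, had a mean of 325 reads (221 to 444), more than the 196 of POLR3GL itself. ENST00000651769, listed after POLR2F, had a mean of 275 reads (205 to 415) on only 336 bases, against 1407 for POLR2F. ENST00000639658, listed after POLR2B, had a mean of 126 reads (0 to 359), against 4112 for POLR2B. None of the 4 passed an adjusted p of 0.1 in edgeR's test over transcripts. Only 0.00771% of the 51892 transcripts tested did so, and the lack of a call therefore says little about these rows.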

How the results depend on the processing

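ARMC5 was called lower in all 16 alternatives, and 0 member transcripts were called in any of theirs. Over all genes, 1064 were called (610 higher, 454 lower), against 235 with a length offset in edgeR, 568 with one in DESeq2, 1766 with the replicate block, 676 at an adjusted p under 0.05 and 536 to 1074 with 1 library left out. With genes of at least 1 count 1537 were called (792 higher, 745 lower). With library size only the balance turned, with 458 higher and 495 lower. The number of members called was 0 with library size only, with a length offset in edgeR and at an adjusted p under 0.05. It was 4 with genes of at least 1 count (POLR1G higher, POLR1A, POLR2J and POLR2J3 ENSG00000285437 lower) and 4 with the replicate block (POLR2A in place of that POLR2J3 gene), and 0 to 2 with 1 library left out. It was 0 without shARMC5 replicate 2 or shNT replicate 1 and 2 without shARMC5 replicate 1. Of the assembly and initiation factors, 1 was called with a length offset in DESeq2 and 0 to 2 with 1 library left out (2 without shNT replicate 2, 1 without shNT replicate 3). The cause of these changes was not tested.

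Over the gene totals of all genes tested, libraries with the same replicate number did not deviate together (correlations of -0.0216 to -0.0059, against -0.0149 to 0.0271 for other pairs). A correlation over all genes cannot show whether a smaller set of genes shares a replicate effect. Whether the numbers pair the libraries is therefore not known. Single transcripts of POLR3E did differ in replicate 3 of both groups. With the replicate block, the log2 fold change of POLR2A was -0.40 (adjusted p = 0.00376 in edgeR) from its matched transcripts and -0.22 (adjusted p = 6.82e-06) with the unmatched row.

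For the other 33 members, 467 of 528 fits left direction and call as they were, and 38 turned the sign of a difference that was not called. A call was gained in 12 fits and lost in 11, the losses being those of POLR1G, the only member called. With a length offset in edgeR the log2 fold change was -0.052 for POLR1B, 0.054 for POLR1C, 0.053 for POLR1F, -0.026 for POLR2E, -0.10 for POLR2M, -0.12 for POLR3B, -0.069 for POLR3C and 0.040 for POLR3D. With one in DESeq2 it was -0.054 for POLR1B, 0.054 for POLR1C, 0.053 for POLR1F, -0.027 for POLR2E, -0.11 for POLR2M, -0.12 for POLR3B, -0.069 for POLR3C and 0.039 for POLR3D. With library size only it was -0.0012 for POLR1B, -0.0075 for POLR1D and -0.0090 for POLR3F. With unmatched transcripts added it was 0.015 for POLR2B, 0.0074 for POLR3G and 0.083 for POLR3GL. With 1 library left out, ranges that include 0 were -0.013 to 0.021 for POLR1D, -0.043 to 0.020 for POLR1F, -0.13 to 0.0018 for POLR2B, -0.0073 to 0.042 for POLR2G, -0.079 to 0.015 for POLR2K, -0.018 to 0.055 for POLR3B, -0.031 to 0.045 for POLR3D, -0.039 to 0.043 for POLR3F and -0.039 to 0.051 for POLR3G.

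With 3 libraries a group, the intervals given show how precisely each change was measured, and genes with few reads (POLR2J2 from 40, POLR3GL from 137 per library) have wide intervals.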
